A study of Mus musculus with 2 samples.

Results

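Cholesterol and the straight-chain fatty acids of membranes are made from acetyl-CoA by a fixed series of enzymes, and the genes described here are 31 genes of that series, of 33696 genes listed in the deposited files. They were taken by symbol from a set list and comprise 20 enzymes from acetyl-CoA to cholesterol, 6 regulators of sterol synthesis and 5 enzymes of fatty acid synthesis. All 31 were found, and their unique molecular identifiers (UMIs, each marking 1 captured transcript) were summed by cell type in each library. The cells came from tibialis anterior muscle of male mice, as 1 library labelled KO and 1 library labelled WT, each pooled from 10 muscles of 5 mice of its strain. Both were freshly isolated after 1 h of enzyme digestion, sorted for viability with propidium iodide, and given the same batch and the abbreviation ND, which the labels do not spell out. The labels name neither the altered allele nor the cells in which it was altered, and give no age or strain background. The series title names insulin-like growth factor I made by resident mesenchymal progenitors, so Igf1 was read first.

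In sterol synthesis, thiolase and Hmgcs1 lead to mevalonate, the mevalonate steps and Idi1 to isoprenoid units, Fdps and Fdft1 to squalene, and Sqle, Lss, Cyp51 and later enzymes close and trim the ring to cholesterol. Scap escorts the SREBP transcription factors, the products of Srebf1 and Srebf2, to the Golgi when membrane sterol is low, Insig1 and Insig2 retain them when it is high, and released SREBP raises most enzymes of this list. Myelin is rich in cholesterol, which Schwann cells, the glia of peripheral nerve, largely make themselves. Satellite cells, the stem cells of muscle, and fibro-adipogenic progenitors (FAPs), its mesenchymal cells, express the same pathway.

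The library labelled KO held 19531 barcodes with 101570863 UMIs (median 4010 per barcode), and the library labelled WT held 11360 barcodes with 38014703 UMIs (median 2688.5). After filtering, 17104 and 9805 barcodes remained in the libraries labelled KO and WT, of which 77.7% and 85.7% were given a cell type from marker genes. The libraries shared 61 barcode sequences, 49 of them among kept barcodes. Although the labels call all cells FAPs, FAP-like cells were 5.35% of kept barcodes in the library labelled KO and 14.4% in the library labelled WT. A cluster of 2861 barcodes held none from the library labelled WT, and most of its barcodes had no cell type; of the 722 that had one, 81.2% were endothelial-like. Igf1 (ENSMUSG00000020053), given here in CPM, its share of all UMIs of the class scaled to counts per 1000000, in FAP-like cells was at 417 CPM in the library labelled KO and 379 CPM in the library labelled WT, a log2 ratio of 0.14 (95% interval 0.07 to 0.21). In that cell type the named gene was thus not lower in the library labelled KO, and a 3′ tag need not lie in an altered exon. Whether these cells had lost intact Igf1 was not tested. It was lower in tenocyte-like cells, at 83.0 CPM in the library labelled KO and 240 CPM in the library labelled WT, and in macrophage-like (17.2 and 103 CPM) and endothelial-like cells (6.30 and 14.0 CPM). It was higher in perineurial-like cells, at 125 and 59.9 CPM in the libraries labelled KO and WT. With 1 library per genotype no difference has a replicate check and none was tested, and every interval covers counting error alone.

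Sterol synthesis genes share promoter elements, and 4 members that stood apart in Schwann or myogenic cells are shown for that reason. They are the windows of 250 bases before the RefSeq start of Hmgcs1 (chr13:119690101-119690350, plus strand), Idi1 (chr13:8885356-8885605, plus strand), Cyp51 (chr5:4104698-4104947, minus strand) and Msmo1 (chr8:64733579-64733828, minus strand), in build GRCm38.p6. Each is written along the strand of its gene, with motif matches on either strand in capitals.
Hmgcs1: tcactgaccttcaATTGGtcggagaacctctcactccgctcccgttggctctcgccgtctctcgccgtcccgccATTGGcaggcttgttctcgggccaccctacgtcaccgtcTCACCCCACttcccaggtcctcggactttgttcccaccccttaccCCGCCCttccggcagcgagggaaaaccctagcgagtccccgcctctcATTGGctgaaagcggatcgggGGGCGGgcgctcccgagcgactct
Idi1: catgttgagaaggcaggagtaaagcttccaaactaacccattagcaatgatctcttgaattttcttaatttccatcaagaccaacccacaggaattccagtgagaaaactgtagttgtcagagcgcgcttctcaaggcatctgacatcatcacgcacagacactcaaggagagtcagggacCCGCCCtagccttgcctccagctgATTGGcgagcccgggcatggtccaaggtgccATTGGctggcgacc
Cyp51: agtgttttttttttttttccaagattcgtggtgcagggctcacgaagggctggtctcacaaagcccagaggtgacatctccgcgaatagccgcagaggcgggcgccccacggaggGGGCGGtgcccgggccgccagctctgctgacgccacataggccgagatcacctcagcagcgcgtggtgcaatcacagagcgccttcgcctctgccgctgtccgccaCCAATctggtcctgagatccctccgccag
Msmo1: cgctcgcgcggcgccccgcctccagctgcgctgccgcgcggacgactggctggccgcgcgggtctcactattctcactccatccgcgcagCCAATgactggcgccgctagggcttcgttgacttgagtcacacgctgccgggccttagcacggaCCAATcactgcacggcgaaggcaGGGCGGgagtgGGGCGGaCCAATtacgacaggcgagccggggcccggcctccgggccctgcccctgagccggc
Motifs searched were TCACNCCAC, a core of the sterol regulatory element that SREBP binds, CACGTG, the E-box it also binds, CCAAT, the NF-Y box, and GGGCGG, an Sp1 box. Hmgcs1 held 1 sterol element core, 3 NF-Y boxes and 2 Sp1 boxes. Msmo1 held 3 NF-Y and 2 Sp1 boxes, Idi1 held 2 and 1, and Cyp51 held 1 of each. No matches overlapped one another in these windows.
RefSeq gave 33 such windows for 25 of the 31 members and none was used for Fdps, Fdft1, Sqle, Stard4, Scd1 and Scd2. The NF-Y box was in 66.7% of the member windows and in 33.8% of all 32851 promoter windows. The Sp1 box was in 72.7% and 32.7%, the E-box in 15.2% and 6.02%, and the sterol element core in 3.03% and 1.05%, the 1 member window with the core being that of Hmgcs1. Windows of 1 gene can overlap, and a match of letters is not a site shown to be bound.

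The 20 sterol enzymes, summed, were lower in glial-like cells of the library labelled KO and higher in its myogenic-like cells. In glial-like cells, with Kcna1, Cdh19 and Chl1 among their leading genes, the sum was 627 CPM (601 to 653) in 599 cells of the library labelled KO and 866 CPM (814 to 921) in 369 cells of the library labelled WT. The log2 ratio was -0.47 (-0.57 to -0.36). In myogenic-like cells, led by Myf5, Calcr, Pax7 and Myod1, it was 556 CPM (534 to 579) in 537 cells of the library labelled KO and 410 CPM (380 to 442) in 430 cells of the library labelled WT. This log2 ratio was 0.44 (0.32 to 0.57). The ratio in glial-like cells was thus 0.91 log2 units below that in myogenic-like cells, a difference that 1 library per genotype does not allow to be tested.

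**Figure D1:**
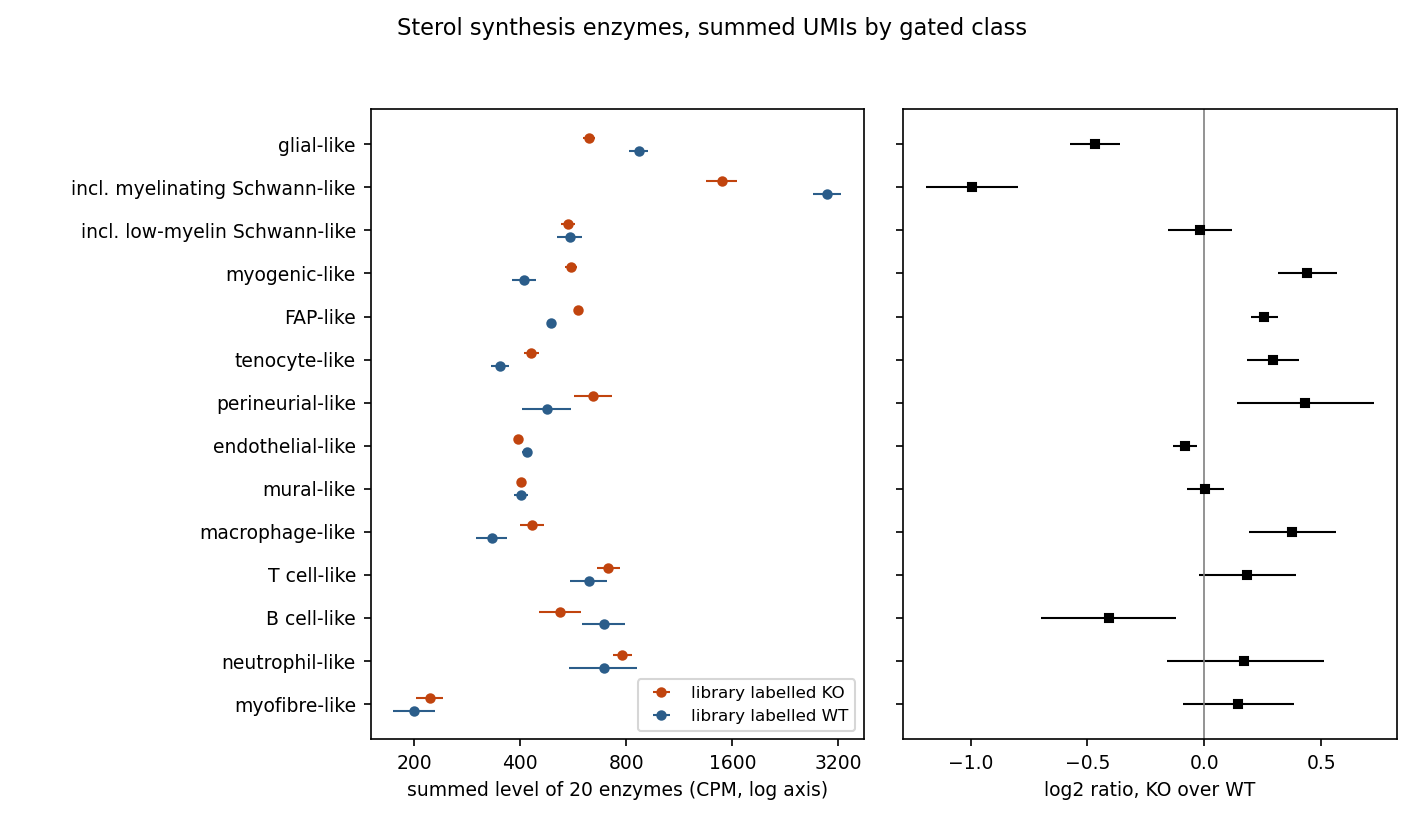
Summed level of the 20 sterol synthesis enzymes in each marker-gated class, in CPM on a log axis (left, library labelled KO above library labelled WT) and as the log2 ratio of KO over WT (right); bars are exact 95% counting intervals. Myelinating Schwann-like cells stand highest in both libraries and furthest to the left, at -0.99, and myogenic-like cells lie to the right of 0, at 0.44.

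Among the other classes the sum was higher in the library labelled KO in tenocyte-like (430 against 350 CPM), perineurial-like (643 against 476 CPM) and macrophage-like cells (431 against 332 CPM). The macrophage log2 ratio was 0.38 (0.19 to 0.56), and 0.27 with median-of-ratios scaling. Markers differed there too: 8 macrophage markers summed to 5390 and 8195 CPM, and 8 neutrophil markers to 365 and 161 CPM, in the libraries labelled KO and WT. Their part in the sterol difference was not tested. Endothelial-like cells had 395 CPM in the library labelled KO and 418 CPM in the library labelled WT, a log2 ratio of -0.08 (-0.13 to -0.03). Mural-like cells, which wrap the vessels, had 403 and 402 CPM in the libraries labelled KO and WT. These vessel classes hold most of the gated cells, and their levels lay close together in both libraries. B-cell-like cells also had a lower sum, at 519 CPM in 56 cells of the library labelled KO and 690 CPM in 91 cells of the library labelled WT (log2 ratio -0.41, -0.70 to -0.12). Intervals of the ratio included 0 in T-cell-like (0.18), neutrophil-like (0.17) and myofibre-like cells (0.14). Barcodes with no class had 466 and 374 CPM in the libraries labelled KO and WT.

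Each gene was then read by itself where it had at least 50 UMIs over both libraries and 10 CPM on average, and was counted as higher or lower when the libraries differed at least 1.5-fold after adding 1 CPM. Hmgcs1, Ggps1 and Acaca passed this floor in each of the 8 main classes. The mevalonate kinase Mvk and decarboxylase Mvd, the lanosterol synthase Lss, the sterol reductase Tm7sf2 and the final reductase Dhcr7 passed it in none. They were therefore not counted as higher or lower in any of these classes. In glial-like cells 26 of 31 members passed, and 0 were higher and 9 lower, where 6.31% of all 9100 genes past the floor were higher and 5.44% lower. Their median log2 ratio was -0.21, against 0.03 over all genes, and it was -0.062 with clusters in place of marker gates and -0.35 under a stricter gate. In myogenic-like cells 22 members passed, and 8 were higher and 1 lower, where 12.2% of 7926 genes were higher and 12.8% lower. Their median was 0.43, against 0.02 over all genes, and it was 0.23 with no floor or with a floor of 50 CPM.

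**Figure D2:**
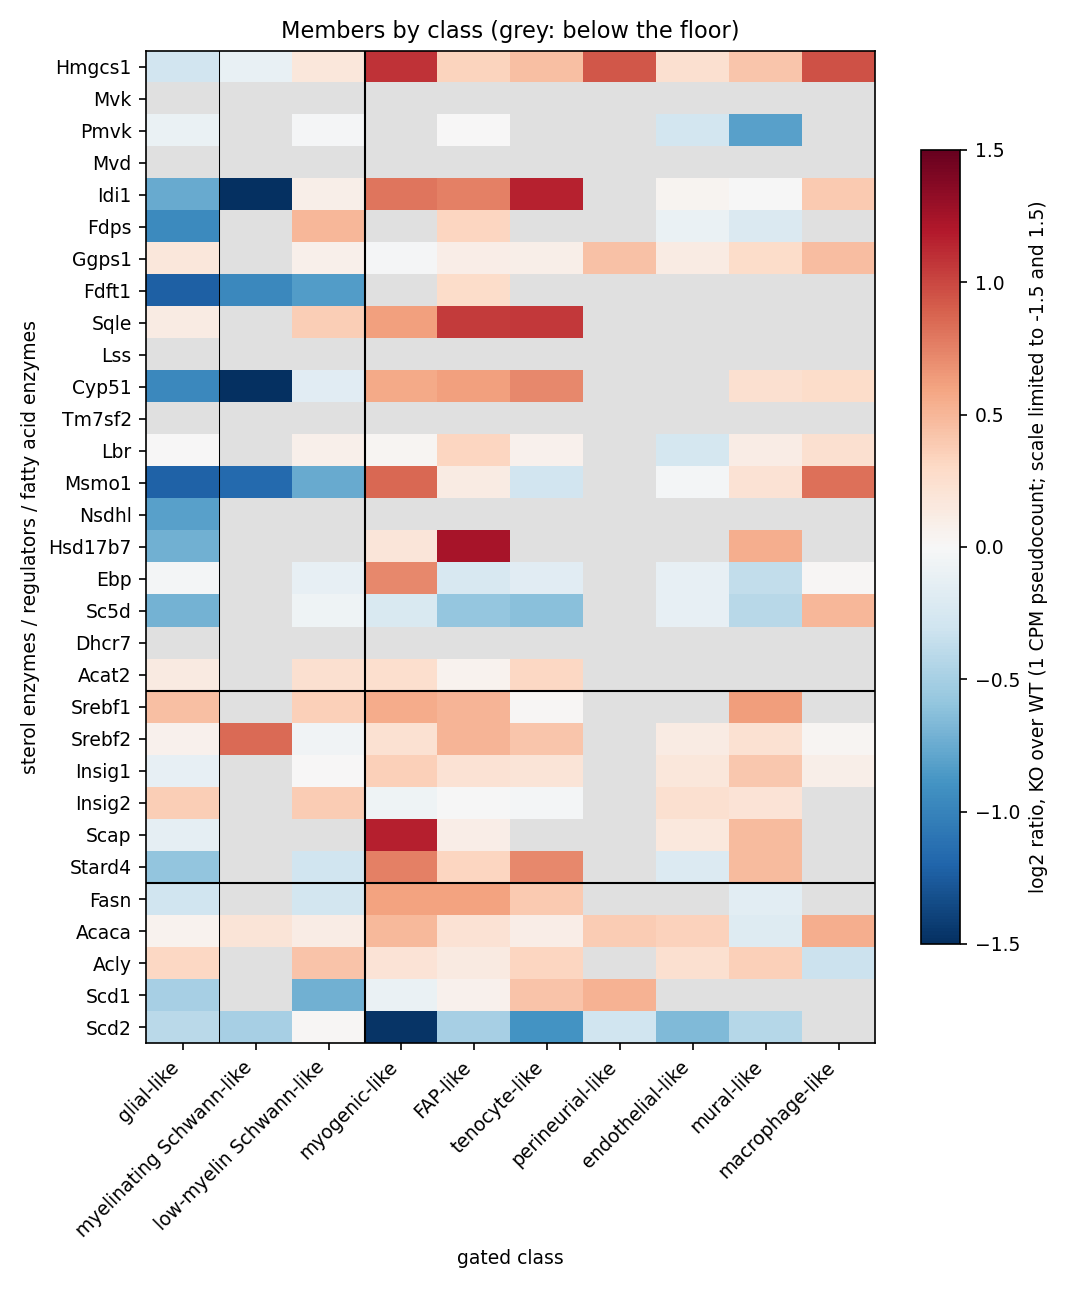
Log2 ratio of KO over WT for each member (rows, grouped as sterol enzymes, regulators and fatty acid enzymes) in each class (columns), with members below the floor in grey. Idi1 and Cyp51 are blue in glial-like and red in myogenic-like, FAP-like and tenocyte-like cells, and Scd2 is blue in each class outside the glia where it passed.

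The 9 lower members of glial-like cells were 8 sterol enzymes and Stard4, a carrier that moves sterol between membranes. Msmo1 (ENSMUSG00000031604), the methylsterol oxidase, was at 46.3 CPM in the library labelled KO and 108 CPM in the library labelled WT, a log2 ratio of -1.21. Fdft1 (ENSMUSG00000021273), squalene synthase, was at 17.4 and 42.0 CPM in the libraries labelled KO and WT, a log2 ratio of -1.22. Cyp51 (ENSMUSG00000001467), lanosterol demethylase, was at 45.4 CPM in the library labelled KO and 89.8 CPM in the library labelled WT (-0.97). These 3 lay furthest below 0 together with Fdps (ENSMUSG00000059743), farnesyl diphosphate synthase, at 21.6 CPM in the library labelled KO and 42.8 CPM in the library labelled WT (-0.96). Idi1 (ENSMUSG00000058258), the isopentenyl diphosphate isomerase, was at 53.9 and 91.5 CPM in the libraries labelled KO and WT (-0.75). Nsdhl (ENSMUSG00000031349), Hsd17b7 (ENSMUSG00000026675), Sc5d (ENSMUSG00000032018) and Stard4 (ENSMUSG00000024378) had log2 ratios from -0.81 to -0.60. Nsdhl and Hsd17b7 take part in the removal of methyl groups from the sterol ring. They were at 10.1 and 9.26 CPM in the library labelled KO and 18.5 and 16.0 CPM in the library labelled WT. The interval of Hsd17b7 included 0 (-1.64 to 0.11). Sc5d, the lathosterol desaturase, and Stard4 were at 37.6 and 21.9 CPM in the library labelled KO and 62.1 and 33.6 CPM in the library labelled WT. Hmgcs1 (ENSMUSG00000093930), the synthase that begins the pathway proper, was at 86.4 CPM in the library labelled KO and 106 CPM in the library labelled WT, with an interval that included 0 (-0.60 to 0.02).

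Glial-like cells were of 2 kinds, and the ratios of their sterol sums lay apart. Myelinating Schwann-like cells, those with more myelin markers than markers of the other kind, were 63 of 599 glial-like cells (10.5%) in the library labelled KO and 55 of 369 (14.9%) in the library labelled WT. Their sterol enzymes summed to 1496 CPM (1352 to 1651, 393 UMIs) in the library labelled KO and 2980 CPM (2714 to 3266, 458 UMIs) in the library labelled WT, a log2 ratio of -0.99 (-1.19 to -0.80). Low-myelin Schwann-like cells, led by Cdh19, Chl1 and Kcna1, held 546 CPM in 531 cells of the library labelled KO and 553 CPM in 313 cells of the library labelled WT, a ratio of -0.02 (-0.15 to 0.12). The myelinating ratio lay 0.98 log2 units below the low-myelin ratio. With both libraries set to the mix of kinds in the library labelled WT, the glial ratio was -0.37. Median UMIs per cell were 3958 and 2500 in myelinating and 5801 and 3080 in low-myelin cells of the libraries labelled KO and WT. Per cell, myelinating Schwann-like cells had a median of 8.64 sterol enzyme UMIs per 10000 (quartiles 4.46 and 18.0) in the library labelled KO and 15.7 (8.28 and 33.2) in the library labelled WT, so the cells overlapped widely.

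**Figure D3:**
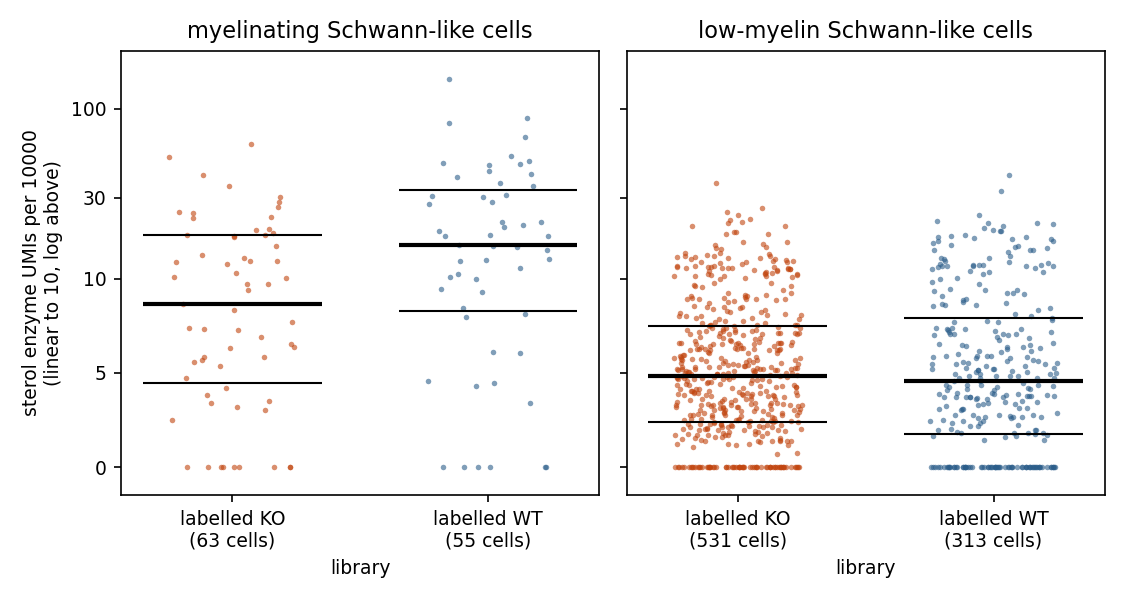
Sterol enzyme UMIs per 10000 UMIs in each Schwann-like cell, by library and kind; points are cells, thick lines medians and thin lines quartiles, on an axis that is linear to 10 and logarithmic above. The median is 8.64 in myelinating cells of the library labelled KO and 15.7 in those of the library labelled WT, and 4.82 and 4.55 in low-myelin cells.

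Only 8 members passed the floor in myelinating Schwann-like cells, 1 higher and 4 lower, where 20% of 1805 genes were higher and 11.5% lower; the median over all genes was 0.11 here, as in macrophage-like cells, and the members' median was -0.73. Hmgcs1 had 128 UMIs (487 CPM) in the library labelled KO and 81 UMIs (527 CPM) in the library labelled WT, a ratio of -0.11 (-0.53 to 0.31). Of the later enzymes, 4 stood lower. Idi1 had 35 UMIs (133 CPM) in the library labelled KO and 64 UMIs (416 CPM) in the library labelled WT, a ratio of -1.64 (-2.28 to -1.03). Cyp51 had 35 UMIs (133 CPM) in the library labelled KO and 62 UMIs (403 CPM) in the library labelled WT (-1.59, -2.24 to -0.98). Msmo1 had 53 UMIs (202 CPM) and 70 UMIs (456 CPM) in the libraries labelled KO and WT (-1.17, -1.72 to -0.64), of which 1 cell held 18.9% and 24.3%. Fdft1, which commits farnesyl diphosphate to sterols, had 103 CPM in the library labelled KO and 202 CPM in the library labelled WT (-0.97, -1.77 to -0.18). Fdps and Sc5d fell short of the 50 UMIs needed, with 8 and 36 UMIs of Fdps and 14 and 35 UMIs of Sc5d in the libraries labelled KO and WT. Both thus had fewer UMIs in the library labelled KO, although its class total was larger, at 262740 UMIs against 153673. Sqle, the squalene epoxidase, also missed the floor, with 28 UMIs (107 CPM) in the library labelled KO and 14 UMIs (91.1 CPM) in the library labelled WT (0.22, -0.75 to 1.27).

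The 1 higher member was Srebf2 (ENSMUSG00000022463), the gene of the SREBP that drives sterol enzymes, with 259 CPM in the library labelled KO and 143 CPM in the library labelled WT (0.85, 0.14 to 1.62). Insig1, itself a target of SREBP, was at 114 and 117 CPM in the libraries labelled KO and WT (-0.04, -0.93 to 0.89) on fewer UMIs than the floor. Among fatty acid enzymes, Scd2 (ENSMUSG00000025203), a desaturase that is prominent in nerve, had 1404 CPM in the library labelled KO and 1985 CPM in the library labelled WT (-0.50, -0.72 to -0.28). Acaca, acetyl-CoA carboxylase, was at 171 and 150 CPM in the libraries labelled KO and WT (0.19, -0.56 to 0.99). Scd1 and Scd2 are close copies, and how reads matching both were assigned is not given in the sources used here.

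Of 14 genes of myelin proteins and their regulators, 2 were higher and 2 lower, beside 20% and 11.5% of all genes, and their median was -0.14 against 0.11. The 8 markers that define the myelinating kind summed to 18528 CPM in the library labelled KO and 28027 CPM in the library labelled WT, and the part of this in the sterol difference was not tested. Pmp22, which encodes a protein of compact myelin, was at 6885 CPM in myelinating cells of the library labelled KO and 11746 CPM in those of the library labelled WT, a ratio of -0.77. Mbp, Mag, Egr2 and Sox10 had ratios between -0.14 and 0.02, and Pou3f1 and Gldn were higher at 1.06 and 0.98. The galactolipid synthase Ugt8a was lower (422 CPM in the library labelled KO, 774 CPM in the library labelled WT), as was the ceramide synthase Cers2 (79.9 and 195 CPM), while Sgms1, which makes sphingomyelin, was higher (194 and 104 CPM). Of the genes that lengthen fatty acids, Tecr was at 110 CPM in the library labelled KO and 299 CPM in the library labelled WT, and Elovl1 at 160 and 293 CPM. The cholesterol exporter Abca1 went the other way, with 47 UMIs (179 CPM) in the library labelled KO and 10 UMIs (65.1 CPM) in the library labelled WT, a ratio of 1.44 (0.46 to 2.61). Npc2, a lysosomal sterol carrier, was at 141 CPM in the library labelled KO and 215 CPM in the library labelled WT (-0.61, -1.33 to 0.11).

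Markers of other cells also differed in these few cells. The 8 endothelial markers summed to 206 CPM in the library labelled KO, all 8 with a UMI, and 32.5 CPM in the library labelled WT, with 2 detected. The 8 mural markers summed to 141 and 32.5 CPM in the libraries labelled KO and WT. Of the 8 FAP markers, 274 of 285 CPM in the library labelled KO and 169 of 182 CPM in the library labelled WT came from Abca8a, and Pdgfra, Dpt and Clec3b were at 0 in both. The part of these markers in the sterol difference was not tested. In low-myelin Schwann-like cells 23 members passed the floor, and 0 were higher and 3 lower (Fdft1, Msmo1 and Scd1), where 6.84% of 8744 genes were higher and 4.44% lower; their median was 0.02. Msmo1 was at 32.8 CPM there in the library labelled KO and 56.0 CPM in the library labelled WT (-0.75, -1.24 to -0.28), and Scd1 at 34.1 and 57.0 CPM.

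In myogenic-like cells 5 of 11 sterol enzymes past the floor were higher in the library labelled KO and 0 lower, beside 12.2% and 12.8% of all genes. Hmgcs1 had 319 UMIs (73.9 CPM) in the library labelled KO and 56 UMIs (34.4 CPM) in the library labelled WT, a ratio of 1.08 (0.69 to 1.54). Idi1 was at 73.6 CPM in the library labelled KO and 41.8 CPM in the library labelled WT (0.80, 0.43 to 1.22). Msmo1 was at 54.6 and 29.5 CPM in the libraries labelled KO and WT (0.87, 0.44 to 1.37). These 3 had intervals well above 0, and 1 cell held 20.8% of the Msmo1 UMIs of the library labelled WT. Sqle (ENSMUSG00000022351) was at 41.0 CPM in the library labelled KO and 26.4 CPM in the library labelled WT (0.61, 0.14 to 1.15), and Ebp (ENSMUSG00000031168), the sterol isomerase, at 36.1 and 21.5 CPM (0.72, 0.21 to 1.32). Cyp51 lay just under the fold used, at 50.7 CPM in the library labelled KO and 33.8 CPM in the library labelled WT (0.57, 0.15 to 1.04). Ggps1, which makes the geranylgeranyl group for proteins, was at 72.5 and 73.2 CPM in the libraries labelled KO and WT (-0.01, -0.32 to 0.30), and Lbr, a sterol reductase of the nuclear envelope, had a ratio of 0.03 (-0.32 to 0.39).

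Among regulators, Scap (ENSMUSG00000032485) was at 17.8 CPM in the library labelled KO and 7.38 CPM in the library labelled WT, on 12 UMIs in the library labelled WT (1.17, 0.39 to 2.29). Stard4 was at 20.4 and 11.7 CPM in the libraries labelled KO and WT (0.75, 0.08 to 1.60). Srebf2 was at 116 and 99.0 CPM (0.23, -0.03 to 0.49), and Insig2, which retains SREBP, at 218 and 228 CPM (-0.06, -0.24 to 0.11). Fasn (ENSMUSG00000025153), fatty acid synthase, was at 19.2 CPM in the library labelled KO and 12.3 CPM in the library labelled WT (0.60, -0.07 to 1.43), so its interval included 0. Scd2 was the 1 lower member, at 6.25 CPM in the library labelled KO and 19.1 CPM in the library labelled WT (-1.47, -2.41 to -0.82), while Scd1 was at 49.8 and 53.5 CPM.

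**Figure D4:**
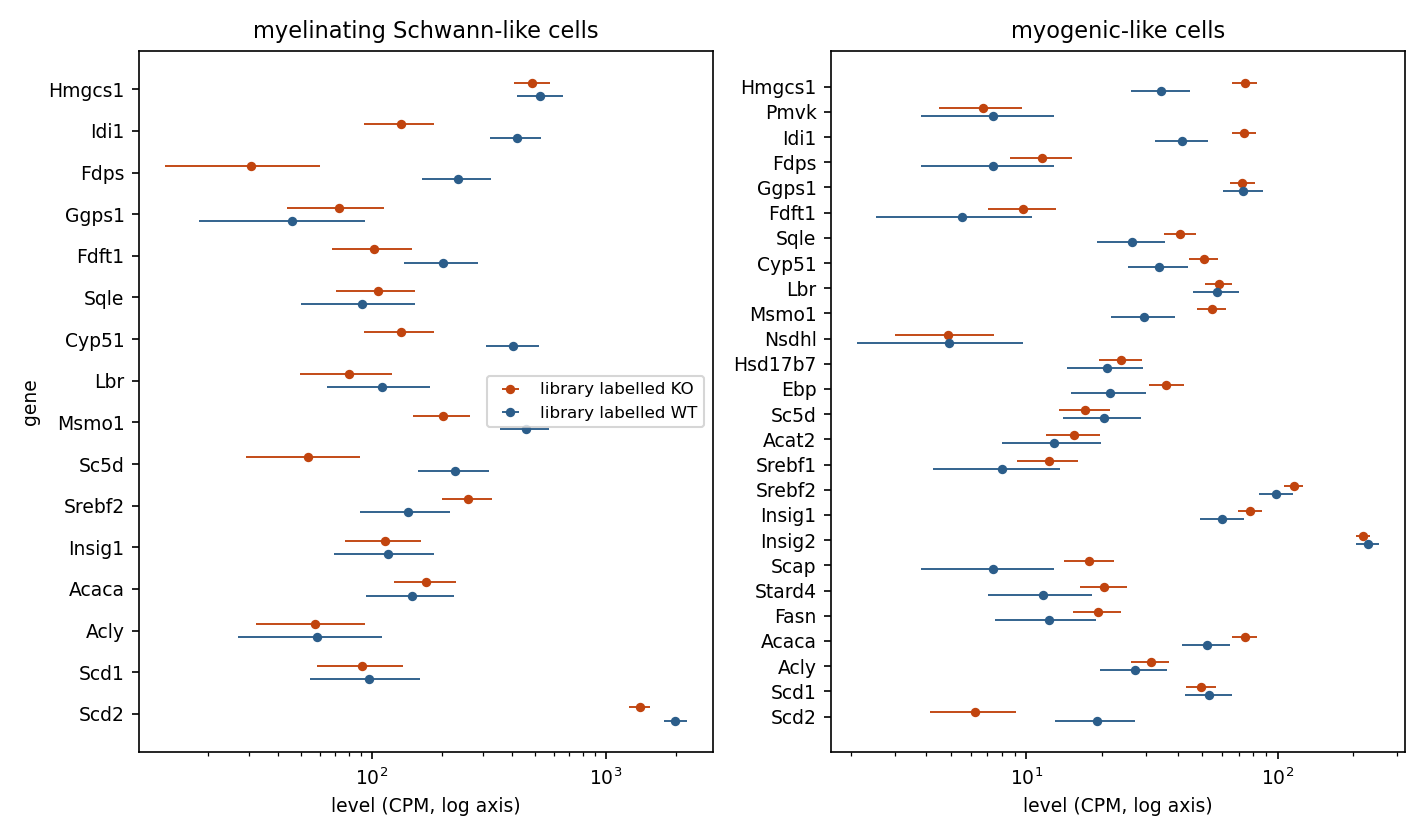
Level of each member with at least 20 UMIs over both libraries in myelinating Schwann-like cells (left) and myogenic-like cells (right), in CPM on log axes with exact 95% counting intervals, library labelled KO above library labelled WT. Idi1, Cyp51 and Msmo1 lie lower in the library labelled KO on the left and higher on the right, whereas Hmgcs1 is 487 and 527 CPM on the left and 73.9 and 34.4 CPM on the right.

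Other genes of lipid handling in myogenic-like cells went both ways. The elongation enzymes Elovl1, Hsd17b12 and Elovl6 were higher in the library labelled KO (0.86, 0.84 and 0.65), and Tecr was lower (-0.63). Mbtps2, the protease that frees SREBP, was at 30.1 CPM in the library labelled KO and 12.9 CPM in the library labelled WT (1.16, 0.55 to 1.96). Of 13 genes of sterol transport and efflux past the floor, 0 were higher and 3 lower, beside 12.2% and 12.8% of all genes, with Abca1 at 46.8 CPM in the library labelled KO and 86.1 CPM in the library labelled WT (-0.87, -1.20 to -0.56), Lipa at -0.85 and Gramd1b at -0.64. Glucosylceramide synthase, Ugcg, was at 258 CPM in the library labelled KO and 141 CPM in the library labelled WT.

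Genes tied to the state of the myogenic-like cells differed in level between the libraries as well. Of these, Pax7, Calcr and Myod1 are among the markers that gated the cells, so their levels depend in part on the gate. Pax7, the satellite cell factor, was at 291 and 452 CPM in the libraries labelled KO and WT, and Calcr, a receptor of quiescent satellite cells, at 201 and 460 CPM. Myod1 was at 244 CPM in the library labelled KO and 170 CPM in the library labelled WT, and the immediate early gene Fos at 2153 and 3927 CPM. Of 12 genes of satellite cell quiescence and activation, 10 passed the floor, 0 higher and 4 lower, and 8 had ratios below 0. Of 15 genes of dissociation stress, all passed, 0 higher and 4 lower, and 10 had ratios below 0. Among all 7926 genes 12.2% were higher and 12.8% lower. Mki67, a marker of cycling cells, had 2 UMIs in the library labelled KO and 55 in the library labelled WT, but in each library only 4 myogenic-like cells held a UMI of Mki67 or Top2a. Median UMIs per cell were 8014 in the library labelled KO and 3551.5 in the library labelled WT. Thinning to 2000 UMIs kept only cells with at least that many, 533 in the library labelled KO and 392 in the library labelled WT. In these the sterol sum had a log2 ratio of 0.59. At full depth, without cells that held a UMI of Mki67 or Top2a, the ratio was 0.44. The main myogenic cluster held 91.2% and 89.1% of myogenic-like cells in the libraries labelled KO and WT. Over those cells the sum was 568 and 422 CPM. The part of cell state in the difference was not tested beyond these values.

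FAP-like cells had a summed sterol level of 585 CPM (570 to 600) in 915 cells of the library labelled KO and 490 CPM (475 to 505) in 1414 cells of the library labelled WT, a ratio of 0.26 (0.20 to 0.31). Of the members 25 passed the floor, and 5 were higher and 0 lower, where 11.4% of 8804 genes were higher and 12.0% lower. Hsd17b7, a sterol ketone reductase, was at 26.6 CPM in the library labelled KO and 10.7 CPM in the library labelled WT (1.23, 0.96 to 1.67). Sqle was at 36.7 and 17.3 CPM in the libraries labelled KO and WT (1.05, 0.81 to 1.38). Idi1 was at 66.4 and 38.9 CPM (0.76, 0.58 to 0.97), and Cyp51 at 72.2 and 46.7 CPM (0.62, 0.45 to 0.81). Fasn was the other higher member, at 28.6 CPM in the library labelled KO and 18.5 CPM in the library labelled WT (0.60, 0.35 to 0.92).

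That FAP difference was much smaller when 1 cluster was left out. Among FAP clusters this cluster had the highest level of F2rl1, a protease-activated receptor. It held 286 of the cells from the library labelled KO and 9 from the library labelled WT. Its cells from the library labelled KO summed to 698 CPM of sterol enzymes, and its 9 others to 196 CPM on 15 UMIs. Outside it, FAP-like cells had 517 CPM in the library labelled KO and 492 CPM in the library labelled WT, a ratio of 0.07 (0.00 to 0.14), and of 24 members past the floor 3 were higher (Fasn, Srebf1 and Hsd17b7) and 1, Sc5d, was lower, where 8.17% of 8889 genes were higher and 6.63% lower. The other FAP clusters did not share a direction: the largest in the library labelled WT had 389 CPM in 253 cells of the library labelled KO and 488 CPM in 828 cells of the library labelled WT, whereas another had 505 and 370 CPM. That largest cluster held 27.7% and 58.6% of FAP-like cells in the libraries labelled KO and WT. Some smaller FAP clusters lay above the F2rl1 cluster, at 748 and 810 CPM and at 1026 and 729 CPM in the libraries labelled KO and WT. The part of this mix in the FAP difference was not tested. Over all FAP-like cells, Hspa5 and Slc7a5, genes of endoplasmic reticulum and amino acid stress, were at 3145 and 51.0 CPM in the library labelled KO and 1802 and 19.8 CPM in the library labelled WT.

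The regulators and fatty acid enzymes, summed, lay closer together than the sterol enzymes in glial-like and myogenic-like cells. In glial-like cells the 5 fatty acid enzymes summed to 587 CPM in the library labelled KO and 729 CPM in the library labelled WT (-0.31, -0.43 to -0.20), and the 6 regulators to 270 and 262 CPM. In myogenic-like cells the fatty acid enzymes summed to 180 and 164 CPM in the libraries labelled KO and WT (0.14, -0.07 to 0.34). The regulators summed to 462 and 414 CPM there (0.16, 0.03 to 0.29), and Insig2 was the largest part of both sums. Gene by gene, the regulators' median log2 ratio was 0.46 there, against 0.57 for the sterol enzymes past the floor. Of the 6 regulators, 2 were higher and 0 lower, where 12.2% of 7926 genes were higher and 12.8% lower. In FAP-like cells the summed regulators stood further apart, at 319 CPM in the library labelled KO and 259 CPM in the library labelled WT (0.30, 0.22 to 0.38). By gene, however, their median was 0.27, below that in myogenic-like cells. None of the 6 was higher or lower, where 11.4% of 8804 genes were higher and 12.0% lower. The fatty acid enzymes of FAP-like cells summed to 335 and 323 CPM in the libraries labelled KO and WT. The thiolase Acat2 and the citrate lyase Acly, which supplies acetyl-CoA, were less than 1.5-fold apart in glial-like, myogenic-like and FAP-like cells, with log2 ratios from 0.05 to 0.31.

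In tenocyte-like cells 20 members passed, and 4 were higher and 2 lower, where 11.1% of 8560 genes were higher and 10.8% lower; Idi1 was at 31.3 CPM in the library labelled KO and 13.5 CPM in the library labelled WT (1.16, 0.69 to 1.76), and Sqle at 23.0 and 10.5 CPM (1.05). Cyp51 (0.73) and Stard4 (0.72) were the other higher members there, and Sc5d (-0.63) and Scd2 (-0.90) the lower ones. In perineurial-like cells, which sheathe nerve bundles, 5 passed and 1 was higher and 0 lower, where 16.0% of 3109 genes were higher and 14.1% lower; it was Hmgcs1, at 92.5 CPM in the library labelled KO and 47.9 CPM in the library labelled WT. In macrophage-like cells 12 passed, and 2 were higher and 0 lower, where 13.6% of 5887 genes were higher and 8.73% lower. Those were Hmgcs1 (28.1 CPM in the library labelled KO, 14.1 CPM in the library labelled WT) and Msmo1 (39.8 and 22.0 CPM).

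In endothelial-like cells 17 members passed, and 0 were higher and 1 lower, where 2.68% of 8367 genes were higher and 5.47% lower. In mural-like cells 21 passed, and 1 was higher and 1 lower, where 3.76% of 8882 genes were higher and 5.91% lower; Srebf1, the SREBP gene tied to fatty acid synthesis, was at 17.7 CPM in the library labelled KO and 11.2 CPM in the library labelled WT, and Pmvk, phosphomevalonate kinase, at 35.2 and 62.7 CPM (-0.81, -1.05 to -0.61). The lower endothelial member was Scd2, at 15.2 CPM in the library labelled KO and 24.5 CPM in the library labelled WT (-0.66, -0.92 to -0.46). Scd2 was below 0 in every one of the 8 main classes, also where it missed the floor in macrophage-like cells, with ratios from -1.47 in myogenic-like to -0.30 in perineurial-like cells. Low-myelin Schwann-like cells were the exception among glia, at 323 CPM in the library labelled KO and 320 CPM in the library labelled WT (0.02, -0.16 to 0.20).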

How the data were processed

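Libraries were made with a 10x 3′ kit, per the labels' protocols. The authors deposited raw UMI counts per gene and barcode as filtered matrices, built with Cell Ranger 9.0.0 on mm10 per the submitters' processing notes; per the file headers the version was 9.0.0 for the library labelled KO and 8.0.0 for the library labelled WT. The members, gene lists and alternatives were chosen with earlier results of these data known.

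Barcodes with under 500 genes or over 10% mitochondrial UMIs were removed. Scrublet's automatic threshold called 1 and 120 doublets in the libraries labelled KO and WT, so the barcodes with the highest scores, 1450 and 467, were removed at a rate of 0.4% per 1000 barcodes, chosen after seeing those calls. Cells were gated by 13 lists of 8 markers, with at least 3 detected and a lead of at least 2 over the next class. At that minimum lead stood 38.1% and 37.7% of glial-like, 35.6% and 46.5% of myogenic-like and 10.3% and 6.79% of FAP-like cells of the libraries labelled KO and WT. Of macrophage-like cells, 32.5% and 9.41% stood there.

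UMIs were summed per class and library. CPM intervals are exact Poisson and ratio intervals exact conditional binomial, both at 95%. Log2 ratios of genes add 1 CPM to both levels, and their intervals do not. The calls and intervals of genes were tested on counts simulated from the FAP-like profile, without variation between cells or animals. The gate was tested only on made-up cells that held all markers of a single class. The rule for named genes took each member past the floor and at least 1.5-fold apart in glial-like or myogenic-like cells, up to 4 members in each direction in other classes, and of other lists up to 3 genes in each direction. Other genes given with values were chosen after their values were seen. Alternatives were clusters, stricter gates, other barcode filters, doublets kept, thinning, median-of-ratios scaling, single cells left out and other floors. Python 3.11.15, scanpy 1.11.5, numpy 2.4.6, scipy 1.17.1 and pandas 2.3.3 were used.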

Additional observations from a re-analysis of the deposited data

Results flagged for a closer look

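The summed sterol enzymes had a log2 ratio of KO over WT of -0.47 in glial-like cells and 0.44 in myogenic-like cells, a difference of -0.91. It was picked out because the libraries differed in opposite directions in these cell types, which was already known when the gene list was chosen. Within glial-like cells, the cluster with most myelinating cells had 1535 CPM in the library labelled KO and 3027 CPM in the library labelled WT. The other glial clusters had 527 and 501 CPM and 668 and 696 CPM in the libraries labelled KO and WT. The difference was not tested, since each genotype has 1 library.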

How the results depend on the processing

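Of 98 values recomputed under other settings, 89 moved by less than the counting error of the class's summed ratio and 9 by more; the ratio of mural-like cells, near 0, crossed 0 when cells were thinned. The summed sterol ratio of glial-like cells was -0.32 with clusters in place of marker gates and -0.64 under a stricter marker gate, and the members' median there was -0.062 and -0.35. The myogenic ratio was 0.59 and the macrophage ratio 0.64 with cells thinned to 2000 UMIs and cells with fewer left out. The myogenic median of the members was 0.23 with no floor and 0.23 with a floor of 50 CPM. The FAP ratio was 0.070 without the cluster with the highest F2rl1 level. The ratio of myelinating Schwann-like cells ran from -1.11 to -0.97 over 9 alternatives. Those alternatives, the fixed mix of Schwann-like cells, and leaving out the F2rl1 cluster or the cycling cells were chosen after seeing the data. The causes of these movements were not tested. No paired analysis was possible because each genotype has 1 library. Depth limits members with few UMIs, above all in the 63 and 55 myelinating Schwann-like cells of the libraries labelled KO and WT.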
